A study of Rattus norvegicus with 19 samples.

Results

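The genes described here mark the identity of endothelial cells and their activated state. They were chosen as a list of 46 symbols, looked up in the count files of all 7 groups, and 45 of the 46 were found among 17455 gene symbols. Ecscr was not matched under that symbol and is not analysed here. All 45 passed the filter on low counts and were tested together with the other genes, 12388 in all. They fall into 16 genes of junctions, surface and matrix, 5 transcription factors, 10 genes of transport, caveolae and signaling, 6 arterial genes, 4 shear-responsive genes and 4 adhesion genes.

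Endothelial cells line every vessel and the chambers of the heart, and in the myocardium they form a dense capillary bed around the muscle cells. Their junctions are built by VE-cadherin (Cdh5), PECAM-1 (Pecam1) and claudin 5 (Cldn5), and their identity is kept by transcription factors of the ETS family, ERG and FLI1 among them, together with SOX and GATA factors. Arterial endothelium is specified by SOX17 and by Notch signaling, in which the ligand DLL4 acts on NOTCH1 and NOTCH4 and the target HEY1 is induced. Laminar flow induces the factors KLF2 and KLF4 and their targets, and inflammatory signals acting through NF-kB induce the adhesion molecules ICAM-1, VCAM-1 and E-selectin, which hold leukocytes at the vessel wall.

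The study sequenced total RNA from the left ventricles of Sprague-Dawley rats that were 24 weeks old at the start and is built on a model of heart failure with preserved ejection fraction (HFpEF). The model joins L-NAME, which blocks nitric oxide synthases, the endothelial enzyme among them, at 0.5 g/L in the drinking water to a high-fat diet with 60% of its energy from fat, for 5 weeks. The groups were control 5w and HFpEF, taken at week 5 (3 hearts each), and control 9w (3 hearts), untreated (3), EMPA (2), PFD (2) and EMPA + PFD (3), taken at week 9. Controls received no L-NAME, and per the study they ate normal chow. The 4 other week 9 groups were HFpEF rats that were given, by gavage each day for 4 weeks, phosphate-buffered saline (untreated), empagliflozin at 0.35 g/kg, pirfenidone at 0.3 g/kg, or both drugs. The sample records give 5 weeks of L-NAME and diet and the paper speaks of an induction of 9 weeks, so it is unclear whether exposure was ongoing or had ended in these 4 groups. Empagliflozin inhibits the sodium-glucose cotransporter SGLT2 and pirfenidone is an antifibrotic drug. All rats were of a wild-type strain and labelled male. The 19 libraries held between 7430539 and 13017754 counts in genes, with a median of 9951011. By group the median total was 12616559 for control 5w, 10857636 for HFpEF, 8141045 for control 9w, 9951011 for untreated, 7745796 for EMPA, 10123058 for PFD and 10318343 for EMPA + PFD. Levels below are CPM, counts of a gene scaled to the size of its library after TMM normalization, and a level of a gene is compared only with levels of the same gene. Values in a group are given in the order of the replicate numbers.

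Several libraries stood apart. Eif2s3y, a Y-linked gene, had 0 counts in 7 of the 19 libraries, namely HFpEF 1, HFpEF 3 and every library of the untreated and PFD groups, and between 613 and 1321 counts in the other 12. The gene listed as Ddx3 had 0 counts in the same 7 libraries and at least 855 in the others. This goes against the male label of those 7 libraries. The MHC class I gene RT1-CE16 had 0 to 3 counts in each control 5w, HFpEF and EMPA library and 308 to 922 counts in each of the others. Comparisons of control 9w, EMPA or EMPA + PFD with untreated thus cannot be told apart from the difference in Eif2s3y, comparisons of a week 9 control with a week 5 control cannot be told apart from the difference in RT1-CE16, and EMPA and untreated differ in both. PFD and untreated are alike in which of these genes had counts, as are EMPA + PFD and control 9w.

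Libraries also differed in the genes of other cell types. Each list is given with its most abundant gene over all libraries together, which need not lead in each library. Tnnt2 exceeded Myh6 in control 5w 2 and 3, HFpEF 1 and 3 and every EMPA library. Dcn exceeded Col3a1 in every control 9w and EMPA + PFD library and in control 5w 1, untreated 1 and 3, EMPA 1 and PFD 2. The summed CPM of 13 of 14 listed ventricular cardiomyocyte markers, of which Myh6 was the most abundant and none was at 0, was 108834, 53857 and 59574 in control 5w, 17069.7, 26628 and 46148 in HFpEF, 46612, 53209 and 49788 in control 9w, 84268, 23861 and 74406 in untreated, 62764 and 52346 in EMPA, 85966 and 89941 in PFD and 101024, 126507 and 99912 in EMPA + PFD. The lowest sum was in HFpEF 1, and the 3 EMPA + PFD libraries were among the highest. The 12 fibroblast markers, led by Col3a1 and with none at 0, summed to 8531, 49332 and 40598 in control 5w, 22537, 18193 and 19135 in HFpEF, 9069, 6213 and 9167 in control 9w, 9229, 16686 and 7923 in untreated, 7188 and 10418 in EMPA, 7842 and 9302 in PFD and 11370.4, 4209 and 8097 in EMPA + PFD. Control 5w 2 and 3 therefore held several times the fibroblast signal of control 5w 1 and of every control 9w library. The 8 atrial and conduction markers, led by Nppa and with none at 0, summed to 3534, 6705 and 5167 in control 5w, 2507, 369 and 2202 in HFpEF, 5431, 246 and 23978 in control 9w, 181, 15166 and 585 in untreated, 875 and 5452 in EMPA, 3171 and 231 in PFD and 325, 782 and 382 in EMPA + PFD. Control 9w 3 and untreated 2 had the highest atrial sums, and Myl4, an atrial light chain, was at 1381 and 1597 CPM there against 2.95 to 305 in the other libraries of these groups. HFpEF 1 had the highest sum of 11 found lymphocyte markers (217 CPM, led by Cd4, none at 0), of 14 myeloid markers (3669.9, led by Lyz2, none at 0) and of 6 found lymphatic endothelial markers (1301, led by Ccl21, none at 0). The part of these differences in the results below was not tested beyond the fits that leave libraries out. The defining endothelial genes were present in every library, with Pecam1 between 202 and 675 CPM and Cdh5 between 144 and 471. In RNA from whole tissue, fewer endothelial cells and less of a transcript in each cell cannot be told apart.

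The summed CPM of the 45 genes was 7007, 5744 and 6367 in control 5w, 6955, 14038 and 11754 in HFpEF, 15838, 17475 and 13199 in control 9w, 11025, 12199 and 11941 in untreated, 10839.9 and 8566 in EMPA, 10096 and 10089 in PFD and 7892, 7317 and 7156 in EMPA + PFD. Control 9w was thus the highest group and control 5w the lowest, HFpEF 1 lay within the control 5w range, and the EMPA + PFD libraries lay below all other libraries of week 9. Set against each gene's own mean in control 5w, the median gene stood at 1.78 ± 0.455 times that mean in HFpEF (SD over libraries, n = 3), 2.40 ± 0.188 in control 9w (n = 3), 1.90 ± 0.180 in untreated (n = 3), 1.52 ± 0.204 in EMPA (n = 2), 1.52 ± 0.0271 in PFD (n = 2) and 1.14 ± 0.0877 in EMPA + PFD (n = 3). By group mean, 31 of the 45 genes were highest in control 9w, 6 in untreated, 4 in HFpEF and 2 in control 5w. The lowest mean was in control 5w for 28 genes and in EMPA + PFD for 13. Of the 4 adhesion genes, none was highest in control 9w, 3 were highest in HFpEF and Sele in PFD.

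**Figure D1:**
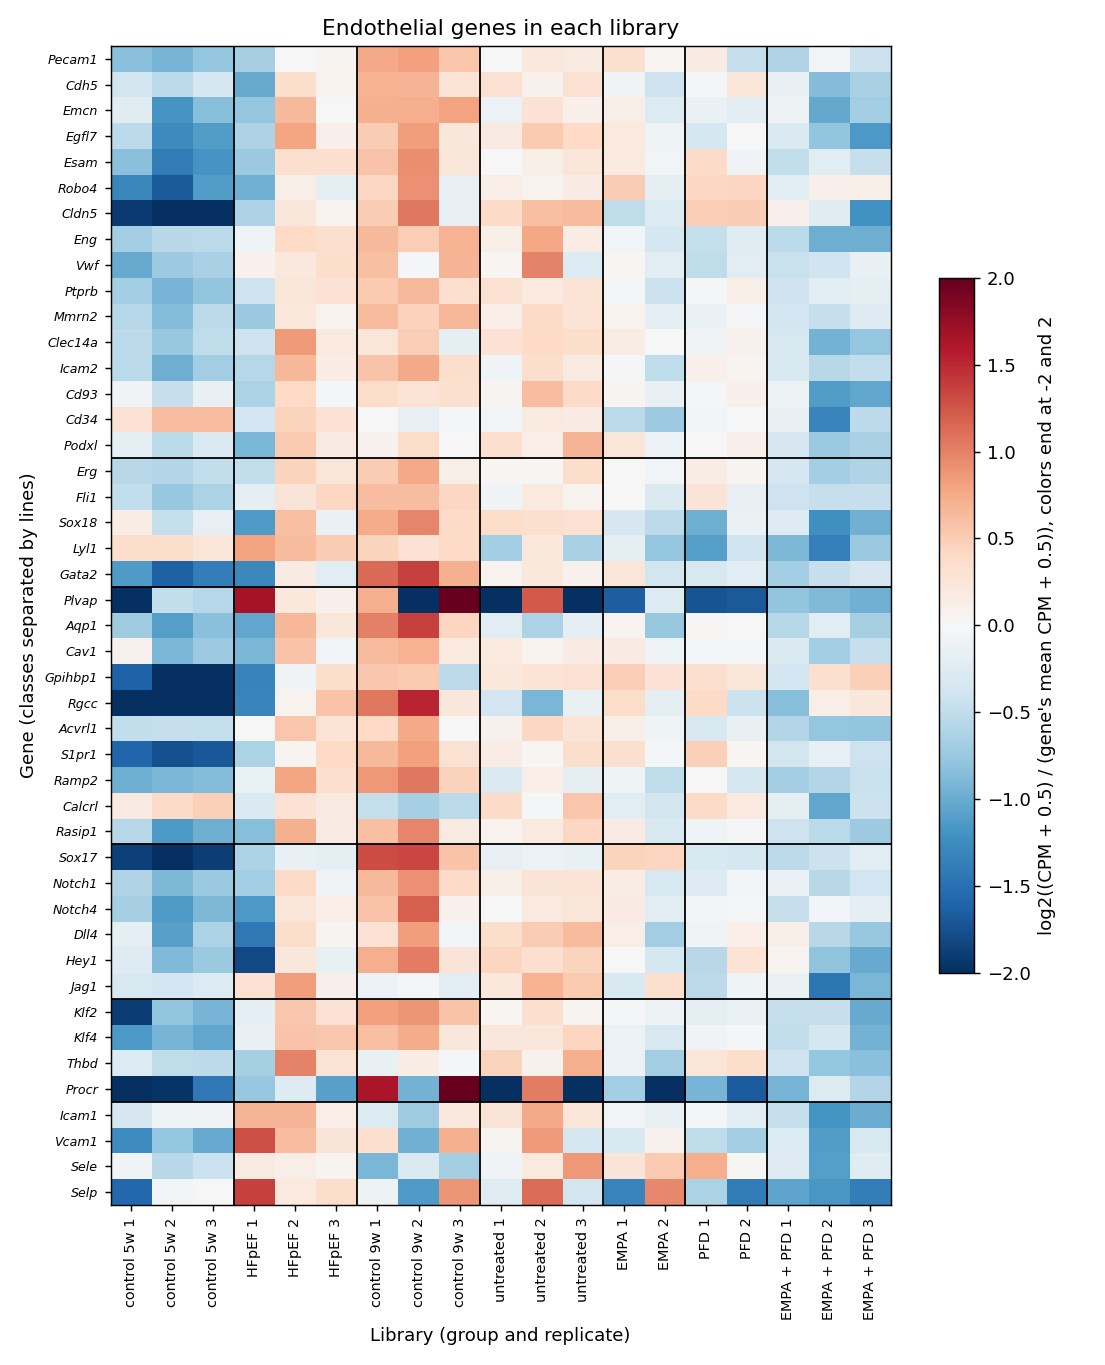
Level of each of the 45 endothelial genes (rows, classes separated by lines) in each of the 19 libraries (columns), as log2 of CPM over the gene's mean CPM after adding 0.5 to both. Control 9w libraries are mostly red, control 5w and EMPA + PFD libraries mostly blue, and 31 of the 45 genes have their highest group mean in control 9w.

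At the onset of disease the comparison of HFpEF with control 5w asks which endothelial genes differ once the 5 weeks of induction are over. Cldn5, the tight junction protein of microvessels, was at 38.8, 29.9 and 25.2 CPM in control 5w and 96.9, 173 and 156 in HFpEF. It rose with no overlap between the groups (log2 fold change 2.18, SE 0.34, edgeR adjusted p = 0.00129). Rgcc, a regulator of the cell cycle, was at 48.7, 41.0 and 44.8 CPM in control 5w and 79.8, 209 and 295 in HFpEF (log2 fold change 2.12, SE 0.45, edgeR adjusted p = 0.00722). Gpihbp1, which carries lipoprotein lipase to the capillary lumen, was at 40.0, 23.9 and 23.9 CPM and 48.8, 118 and 159 CPM (log2 fold change 1.89, SE 0.38, edgeR adjusted p = 0.00564). All 3 genes were higher in every HFpEF library than in any control, and each was lowest in HFpEF 1. Of the 45 genes, 24 were called higher (adjusted p under 0.05 over the 12388 genes) and none lower, where 9.83% of all tested genes were called higher and 10.2% lower. With a fold of at least 2 as well, 15 were called, against 8.69% of all genes in either direction. The median log2 fold change of the 45 was 0.82, against 0.02 over all tested genes, and Cd34 and Calcrl alone were below 0 (-0.36 and -0.27, neither called). In the same comparison 4 of 13 tested cardiomyocyte markers fell and none rose (median -1.26), and 5 of 10 lymphocyte, 4 of 6 lymphatic, 2 of 3 platelet (median 2.27) and 2 of 4 mesothelial markers (median 3.16) rose. The lymphatic marker Prox1 fell, as did 1 of 8 atrial and 1 of 12 smooth muscle and pericyte markers. Of 6 erythroid markers 1 rose, and of 4 adipocyte markers 1 rose. Their part in the result was not tested. The shares of all genes above belong to the main fit. The count was 30 without HFpEF 1, 15 without control 5w 2 or without HFpEF 2, and 8 in a fit of these groups alone. The median was 0.83 in that last fit and 0.61 without HFpEF 2. With the HFpEF libraries that lack Eif2s3y left out, only HFpEF 2 remained and the median was 1.13. With control 5w 2 and 3 left out, only control 5w 1 remained and the median was 0.74. A group of 1 library is there assumed to vary like the others.

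Between the control groups, which differ by 4 weeks of age and in RT1-CE16, the rise was larger. Sox17, an arterial transcription factor, was at 27.0, 24.5 and 26.5 CPM in control 5w and 247, 251 and 148 in control 9w, so that every week 9 control was more than 5 times any week 5 control (log2 fold change 3.05, SE 0.19, edgeR adjusted p = 3.49e-07). Rgcc was at 416, 572 and 234 CPM in control 9w (log2 fold change 3.18, SE 0.47, edgeR adjusted p = 0.000364). Procr, the endothelial protein C receptor, had the largest fold (log2 fold change 3.57, SE 0.91, edgeR adjusted p = 0.0085) and uneven values, 11.7, 12.0 and 17.7 CPM in control 5w and 151, 24.8 and 315 in control 9w. Its order over the control 9w libraries was that of their atrial sums. Of the 45 values 4 were below 0, and the receptor Calcrl, which binds adrenomedullin together with Ramp2, alone was called lower. It was at 77, 89.1 and 94.5 CPM in control 5w and 49.0, 42.9 and 46.6 in control 9w and fell without overlap (log2 fold change -0.91, SE 0.21, edgeR adjusted p = 0.00439). In all, 32 of the 45 genes rose and 1 fell, against 17.3% and 17.2% of all genes, and 28 were called at a fold of at least 2, against 14.7%. All 24 genes called higher in HFpEF were also called higher here. Both comparisons use the same control 5w libraries, which alone can produce such an overlap. The median log2 fold change was 1.30 for the 45 and -0.04 for all genes. Beside this, 9 of 12 fibroblast markers fell (median -2.02), 7 of 14 myeloid markers fell (median -1.16), and 3 of 8 atrial markers rose and 1 fell. Of other lists, 2 of 3 platelet markers (median 2.72) and 1 of 4 mesothelial markers (median 2.72) rose, and 2 of 6 lymphatic markers rose and 2 fell. Of 12 smooth muscle and pericyte markers 2 rose and 2 fell, and of 10 lymphocyte markers 1 rose and 1 fell. Of 13 cardiomyocyte markers 1 fell, and of 4 adipocyte markers 1 rose. Their part was not tested in full. With control 5w 2 and 3, the libraries rich in fibroblast genes, left out, the median was 1.18 and 42 of the 45 values were above 0. That fit leaves 1 control 5w library. With control 9w 3 and untreated 2, the libraries richest in atrial genes, left out, 32 rose and 1 fell.

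At week 9 the comparison of untreated with control 9w asks what differs in established disease, and few endothelial genes passed the test. Sox17 was at 88.5, 91.6 and 89.8 CPM in untreated and fell relative to control 9w (log2 fold change -1.26, SE 0.17, edgeR adjusted p = 0.00678). Ramp2, the partner protein of Calcrl in the adrenomedullin receptor, was at 201, 228 and 150.4 CPM in control 9w and 89.9, 120.3 and 96.4 in untreated and fell as well (log2 fold change -0.92, SE 0.21, edgeR adjusted p = 0.0409). Calcrl itself rose from 49.0, 42.9 and 46.6 CPM to 88.6, 66.1 and 99.6 (log2 fold change 0.88, SE 0.21, edgeR adjusted p = 0.0456). For all 3 genes the groups did not overlap. The 2 genes lower and 1 higher of the 45 stand against 1.19% lower and 0.589% higher among all genes. The median log2 fold change was -0.33 for the 45, of which 32 were below 0, and 0.01 for all genes. Without overlap but without a call, Aqp1, a water channel that red cells also carry, was at 2419, 3125 and 1628 CPM in control 9w and 1041, 774 and 1051 in untreated (log2 fold change -1.32, SE 0.36, edgeR adjusted p = 0.0665), and Gata2 was at 161, 189.5 and 119 and 76.9, 84.2 and 77.2 CPM (log2 fold change -0.98, SE 0.28, edgeR adjusted p = 0.0805). Other uncalled genes also did not overlap, among them Pecam1, Klf2 and Rgcc, lower in untreated, and Jag1, Icam1 and Sele, higher. The 8 of 9 erythroid markers found, led by Hbb, summed to 1538, 1836 and 1182 CPM in control 9w and 233, 186 and 306 in untreated, with 0 to 2 and 2 to 3 of them at 0, and 2 of 6 tested were called lower. Their part was not tested. The shares of all genes above belong to the main fit. The count depended on the fit. It was 8 with DESeq2, 24 with limma voom with sample quality weights, 0 in a fit of these groups alone, 0 with a term for Eif2s3y, which separates these groups and is estimated only from HFpEF, and between 1 and 6 with a library left out, the 6 being without untreated 2. With the term for Eif2s3y the direction also turned, to a median of 0.20 with 29 of the 45 values above 0.

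The disease effect itself differed between the weeks for many of the genes. The difference between the week 9 effect (untreated against control 9w) and the week 5 effect (HFpEF against control 5w) was called below 0 for 26 of the 45 genes and above 0 for Calcrl, where 10.2% of all genes were called below 0 and 9.76% above. For Sox17 the effect was 1.63 at week 5 and -1.26 at week 9 on the log2 scale, a difference of -2.89 (SE 0.25, edgeR adjusted p = 8.25e-05). For Rgcc the effects were 2.12 and -1.48, a difference of -3.60 (SE 0.62, edgeR adjusted p = 0.00282). For Aqp1 they were 0.99 and -1.32, a difference of -2.31 (SE 0.50, edgeR adjusted p = 0.0076). In the same test 4 of 13 cardiomyocyte markers were called above 0 and none below (median 1.66). Of 12 smooth muscle and pericyte markers, 4 were called above 0 and 1 below (median 0.28). Called below 0 were 5 of 6 erythroid (median -3.85) and 4 of 6 lymphatic markers (median -2.15, with 1 above). So were 2 of 3 platelet and 2 of 4 mesothelial markers. Their part was not tested. The difference rests on 4 groups, and the levels of most of the genes in the controls rose between the weeks as given above, a difference that enters this test with its sign reversed. Without untreated 1 the count was 15, and in a fit of these 4 groups alone 15. The median of the 45 was -1.13 in the main fit, -1.15 without untreated 1 and -1.14 in the fit of these groups alone. With control 5w 2 and 3 left out, only control 5w 1 remained and the median was -1.07.

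The comparison of EMPA + PFD with untreated called 14 of the 45 genes lower (all genes: 5.52%), and 31 did not pass. Icam1, an adhesion molecule for leukocytes, was at 46.5, 66.6 and 46.5 CPM in untreated and 28.0, 16.7 and 19.3 in EMPA + PFD and fell without overlap (log2 fold change -1.32, SE 0.24, edgeR adjusted p = 0.00934). Jag1, a Notch ligand, was at 87.9, 123 and 109 CPM in untreated and 68.7, 27.3 and 39.9 in EMPA + PFD (log2 fold change -1.24, SE 0.28, edgeR adjusted p = 0.0182). Endoglin (Eng), a co-receptor for BMP9 and TGF-beta, was at 674, 1060.0 and 686 CPM and 425, 314 and 313 CPM (log2 fold change -1.20, SE 0.20, edgeR adjusted p = 0.00677). All 3 genes were lower in every EMPA + PFD library than in any untreated library. All 14 fell and none rose, where 5.52% of all genes fell and 6.6% rose, and 7 fell by at least 2-fold, against 3.82% of all genes in either direction. The other 11 called were Egfl7, Mmrn2, Clec14a, Cd93, Podxl, Erg, Fli1, Acvrl1, Calcrl, Klf4 and Thbd, with log2 fold changes from -1.11 (Thbd) to -0.52 (Fli1). The median over the 45 was -0.73, against -0.03 over all genes, and 44 of the 45 values were below 0, Rgcc being the exception (0.37, not called). Beside this, 1 of 13 cardiomyocyte markers rose (Ryr2) and their median was 0.83, 2 of 8 atrial markers fell and 1 rose, and no fibroblast marker was called (median -0.58). No myeloid, lymphocyte or mesothelial marker was called either, but their medians were as low as that of the endothelial genes, -0.72 with 13 of 14 values below 0, -1.14 with 9 of 10 and -1.04 with 4 of 4. The 4 adipocyte markers had a median of -1.48, with 3 below 0 and none called. Of 12 smooth muscle and pericyte markers 1 fell (median -0.58), and of 6 erythroid markers 1 rose (median 0.32). Their part was not tested. The shares of all genes above belong to the main fit. The number of calls depended on single libraries. It was 1 without EMPA + PFD 2, 3 without EMPA + PFD 3, 3 without untreated 3, 4 without untreated 2 and 16 without EMPA + PFD 1. It was 0 in a fit of these groups alone and 32 with limma voom with sample quality weights. With untreated 2 and control 9w 3 left out it was 3, and the replicate block gave 9. An unadjusted p under 0.05 was found for 35 of the 45 in the fit of these groups alone. In the main fit it was found for 33 of the 45 and for 4055 of all 12388 genes. The median of the 45 was -0.74 in the fit of these groups alone and -0.60 without EMPA + PFD 2. With a term for Eif2s3y 12 fell and the median was -1.20, although that gene separates these groups.

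With either drug alone no endothelial gene was called against untreated. For EMPA, 0 of the 45 passed edgeR's test, where 0.0404% of all genes did. At an unadjusted p under 0.05 there were 8, where 1069 of all 12388 genes were. DESeq2 and limma voom with sample quality weights also gave 0 calls. The median log2 fold change was -0.29 against 0.01 for all genes, with 38 of the 45 values below 0. That median moved with single libraries, to -0.16 without untreated 2, -0.18 without EMPA 2 and -0.46 without EMPA 1, and was -0.84 with the term for Eif2s3y. Sox17 stood on the other side, at 136 and 134 CPM in EMPA against 88.5, 91.6 and 89.8 in untreated (log2 fold change 0.58, SE 0.19, edgeR adjusted p = 0.36). Of other cell types, the 6 tested erythroid markers had a median of 3.09, all above 0. The 8 atrial markers had a median of -3.93, with 6 below 0. No marker of either list was called, and their part was not tested. For PFD, 0 of the 45 passed, where 0.00807% of all genes did, and 0 passed by DESeq2 and by limma voom with sample quality weights. At an unadjusted p under 0.05 there were 5, where 646 of all 12388 genes were. The median was -0.29 against -0.02, again with 38 values below 0, and ran from -0.36 without untreated 1 to -0.20 without untreated 2. Eng had the smallest unadjusted p of the 45 there, at 446 and 521 CPM in PFD against 674, 1060.0 and 686 in untreated (log2 fold change -0.74, SE 0.22, edgeR adjusted p = 0.786). Under PFD all 12 fibroblast markers (median -0.52) and all 10 lymphocyte markers (-0.46) were below 0. All 13 cardiomyocyte markers (0.54) and all 6 erythroid markers (1.87) were above 0. Of 8 atrial markers 6 were below 0 (-4.68). None of these was called, and their part was not tested. The test of whether the effect of EMPA differed with and without PFD called 0 of the 45, where 0.00807% of all genes were called. DESeq2 and limma voom with sample quality weights also called 0. At an unadjusted p under 0.05 there was 1 (Sox17, log2 difference -0.64), where 1131 of all 12388 genes were. Thus the values under both drugs were not shown to differ from the sum of the effects of each drug, in groups of 2 and 3 hearts. Of the groups in this test EMPA alone had 0 counts of RT1-CE16, and the test cannot be told apart from that difference. The 1 gene it called among all genes was an MHC gene.

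EMPA + PFD was lower than control 9w in most of the genes. Both groups had counts of Eif2s3y and RT1-CE16, but RT1-CE16 fell from 922, 825 and 913 counts to 426, 308 and 720 (log2 fold change -0.87, SE 0.22, edgeR adjusted p = 0.00892). Gata2, a GATA factor of endothelial and blood cells, was at 161, 189.5 and 119 CPM in control 9w and 45.3, 52.6 and 57.5 in EMPA + PFD (log2 fold change -1.59, SE 0.29, edgeR adjusted p = 0.00153). Sox17 was at 69.4, 74.1 and 84.6 CPM in EMPA + PFD (log2 fold change -1.50, SE 0.17, edgeR adjusted p = 0.000276). Procr had the largest fall (log2 fold change -2.34, SE 0.86, edgeR adjusted p = 0.0484), with 25.2, 39.9 and 32.2 CPM in EMPA + PFD that all lie above the 24.8 CPM of control 9w 2. The groups did not overlap for Gata2 and Sox17. Of the 45 genes, 32 fell and none rose, against 16.6% and 17.1% of all genes, and 22 fell by at least 2-fold, against 12.1% in either direction. The median log2 fold change was -1.01 for the 45 and -0.08 for all genes. Of the 14 genes that fell against untreated, 10 fell here too. The EMPA + PFD libraries are in both comparisons, which alone can produce such an overlap. Beside this, 5 of 13 cardiomyocyte markers rose (median 1.31), 5 of 8 atrial markers fell and 1 rose, and 4 of 6 erythroid markers fell (median -2.51). Of 12 smooth muscle and pericyte markers 2 rose and 1 fell, and of 4 mesothelial markers 1 fell (median -2.26). Of 6 lymphatic markers 1 rose and 1 fell. Their part was not tested. With control 9w 3 and untreated 2, the libraries richest in atrial genes, left out, 31 of the 45 fell.

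**Figure D2:**
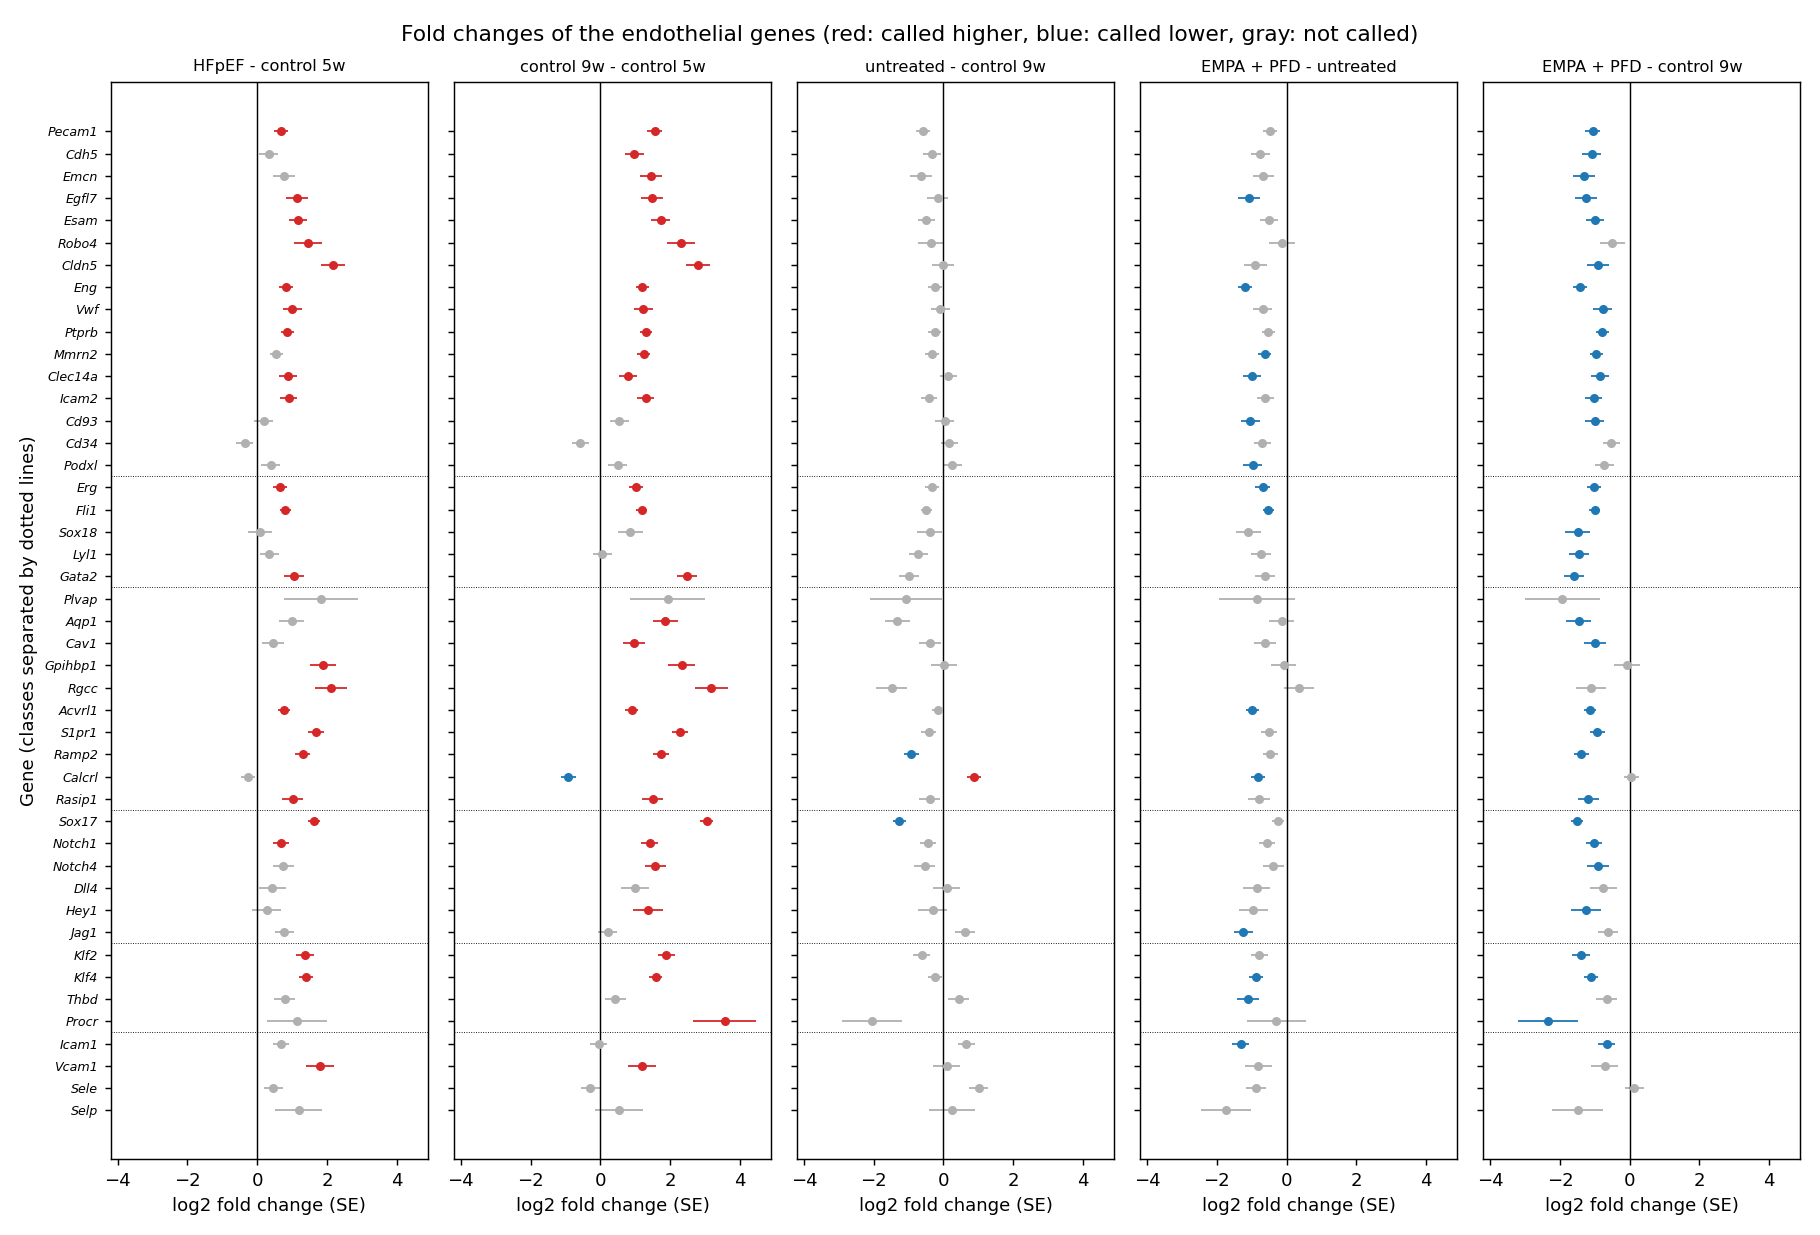
Log2 fold change (points) with its standard error (lines) of each of the 45 endothelial genes in 5 comparisons, from edgeR. Red points were called higher and blue points lower at an adjusted p under 0.05: 24 red in HFpEF against control 5w, 32 red and 1 blue in control 9w against control 5w, 1 red and 2 blue in untreated against control 9w, 14 blue in EMPA + PFD against untreated and 32 blue in EMPA + PFD against control 9w.

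The 16 genes of junctions, surface and matrix hold the genes most used to name endothelial cells. Pecam1, the platelet endothelial cell adhesion molecule, was at 214, 202 and 225 CPM in control 5w, 241, 383 and 398 in HFpEF, 645, 675 and 563 in control 9w, 384, 442 and 432 in untreated, 476 and 392 in EMPA, 428 and 274 in PFD and 252, 367 and 284 in EMPA + PFD. It was higher in every HFpEF library than in any control 5w library (log2 fold change 0.68, SE 0.21, edgeR adjusted p = 0.0333) and higher still in control 9w (log2 fold change 1.56, SE 0.21, edgeR adjusted p = 0.000222). The EMPA + PFD libraries lay below all control 9w libraries (log2 fold change -1.06, SE 0.21, edgeR adjusted p = 0.00232) and below all untreated libraries, the latter without a call (log2 fold change -0.48, SE 0.21, edgeR adjusted p = 0.124). Cdh5, the cadherin of endothelial adherens junctions, was at 227, 199.9 and 232 CPM in control 5w, 144, 373 and 308 in HFpEF, 471, 468 and 353 in control 9w, 359.7, 310.3 and 359 in untreated, 277 and 219 in EMPA, 284 and 344 in PFD and 263, 160.1 and 185 in EMPA + PFD. HFpEF 1 was the lowest library of all for this gene while HFpEF 2 and 3 exceeded every control 5w library, and the week 5 difference was not called (log2 fold change 0.33, SE 0.27, edgeR adjusted p = 0.405). Control 9w exceeded control 5w (log2 fold change 0.97, SE 0.27, edgeR adjusted p = 0.0137) and EMPA + PFD was below control 9w (log2 fold change -1.09, SE 0.27, edgeR adjusted p = 0.00825). In the class, 10 of 16 rose in HFpEF against control 5w (all genes: 9.83%) and 13 rose in control 9w against control 5w (17.3%). None was called in untreated against control 9w (0.589% higher and 1.19% lower). In EMPA + PFD 6 fell against untreated (5.52%) and 13 fell against control 9w (16.6%). Cd34, a surface sialomucin that fibroblasts and progenitor cells also carry, was the gene of the class with no call in any of these 5 comparisons, at 292, 367 and 368 CPM in control 5w and 237, 214 and 237 in control 9w. Von Willebrand factor (Vwf), stored in the Weibel-Palade bodies, rose in HFpEF (log2 fold change 1.01, SE 0.27, edgeR adjusted p = 0.0198) and was highest in untreated 2, at 1021 CPM against 527 and 424 in the other libraries of that group. Robo4, a guidance receptor of vessels, had few counts, 0.543 to 5.78 CPM.

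**Figure D3:**
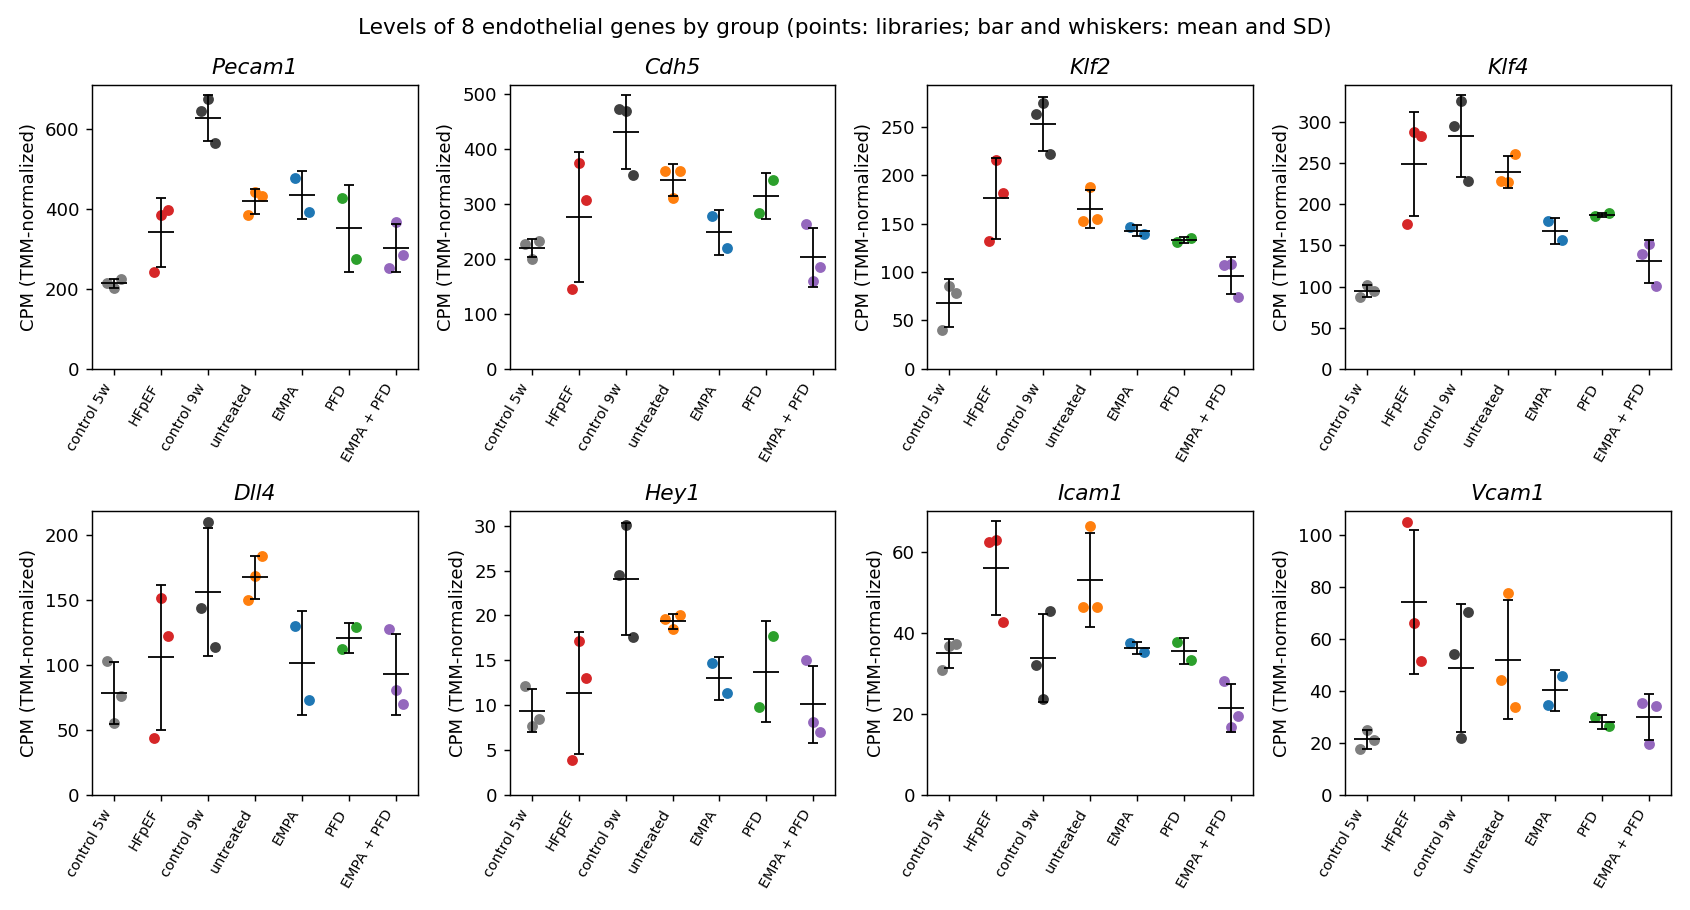
CPM (TMM-normalized, linear axes from 0) of Pecam1, Cdh5, Klf2, Klf4, Dll4, Hey1, Icam1 and Vcam1 in each library (points) by group, with the group mean (bar) and SD (whiskers; n = 3, or 2 for EMPA and PFD). Pecam1 lies between 563 and 675 CPM in control 9w and at or below 476 CPM in every other library, and Icam1 is lowest in EMPA + PFD.

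Among the 5 transcription factors, the ETS factors Erg and Fli1, which bind many endothelial promoters and enhancers, were called in the same 4 comparisons. Erg was at 51.3, 50.3 and 53.7 CPM in control 5w, 53.6, 104 and 89.2 in HFpEF, 108, 128 and 81.8 in control 9w, 77.3, 76.9 and 97.0 in untreated and 60.1, 46.7 and 49.4 in EMPA + PFD. HFpEF 1 was within the control range, and the other HFpEF libraries were above it. Erg rose in HFpEF (log2 fold change 0.66) and in control 9w (1.03) against control 5w, and fell in EMPA + PFD against untreated (-0.69) and against control 9w (-1.02). The first 3 of these values were 0.81, 1.18 and -0.52 for Fli1. Sox18 and Lyl1 were not called at week 5 or between the controls. All 5 factors fell by at least 2-fold in EMPA + PFD against control 9w, Gata2 the most (-1.59) and Fli1 the least. Of all genes 12.1% were called there at that fold in either direction. Lyl1, a factor that blood cells share, had few counts, 3.23 to 16.2 CPM.

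The 10 genes of transport, caveolae and signaling include Rgcc, Gpihbp1, Aqp1, Ramp2 and Calcrl, described above. S1pr1, the receptor for sphingosine 1-phosphate that steadies the endothelial barrier, was at 135, 119.7 and 125 CPM in control 5w, 261, 423 and 537 in HFpEF and 634, 719.8 and 503 in control 9w, with no overlap of either group with control 5w (log2 fold changes 1.68 and 2.29). Acvrl1, the receptor ALK1 that binds BMP9 together with endoglin, was called alongside Eng. Its log2 fold change was 0.77 in HFpEF, 0.90 between the controls, -0.98 in EMPA + PFD against untreated and -1.14 against control 9w, all 4 called, and those of Eng were 0.82, 1.21, -1.20 and -1.44, all called. In the class 6 of 10 rose in HFpEF (all genes: 9.83%), and 8 rose and 1 fell between the controls (17.3% and 17.2%). In EMPA + PFD 2 fell against untreated (5.52%) and 6 against control 9w (16.6%). In a class this small, 1 or 2 calls can lie near those shares. Gpihbp1 was not called against untreated, with 143, 149.9 and 153 CPM in untreated and 94.7, 154 and 172 in EMPA + PFD (log2 fold change -0.08, SE 0.36, edgeR adjusted p = 0.89). Rgcc was also not called against untreated (log2 fold change 0.37, SE 0.43, edgeR adjusted p = 0.567). Plvap, the diaphragm protein of fenestrated and endocardial endothelium, spread widely within groups, at 34.8, 12.4 and 11.4 CPM in HFpEF, 17.9, 0.492 and 44.6 in control 9w and 2.22, 25.7 and 1.69 in untreated, and was called in no comparison. Its high values were in HFpEF 1, control 9w 3 and untreated 2. The summed CPM of 4 of 6 endocardial genes, led by Cytl1 and with Npr3 among them, was also highest in control 9w 3 (611), control 9w 1 (426), untreated 2 (340.4) and HFpEF 1 (338) and between 63.1 and 177 in the other libraries, with 1 of the 4 at 0 in control 9w 2.

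The 6 arterial genes are Sox17, described above, the ligands Dll4 and Jag1, the receptors Notch1 and Notch4, and Hey1. Dll4, the Notch ligand of arterial and tip cells, was at 103, 55.2 and 75.8 CPM in control 5w, 43.4, 152 and 122 in HFpEF, 144, 210.4 and 113 in control 9w, 150.1, 168 and 184 in untreated, 129.7 and 72.9 in EMPA, 112 and 129 in PFD and 128, 80.2 and 69.8 in EMPA + PFD. The HFpEF libraries spanned the control 5w range, and Dll4 was called in none of the comparisons (log2 fold change 0.44, SE 0.39, edgeR adjusted p = 0.439 in HFpEF; log2 fold change 1.00, SE 0.39, edgeR adjusted p = 0.0599 between the controls). Hey1, a transcriptional repressor induced by Notch, was at 12.1, 7.60 and 8.44 CPM in control 5w, 3.80, 17.1 and 13 in HFpEF, 24.5, 30.1 and 17.5 in control 9w, 19.6, 18.4 and 20.0 in untreated, 14.6 and 11.3 in EMPA, 9.75 and 17.7 in PFD and 15.0, 8.13 and 7 in EMPA + PFD. It was lowest in HFpEF 1, rose between the controls (log2 fold change 1.36, SE 0.43, edgeR adjusted p = 0.0241) and fell in EMPA + PFD against control 9w without overlap (log2 fold change -1.26, SE 0.43, edgeR adjusted p = 0.0357). The receptor Notch1 rose in HFpEF (log2 fold change 0.68, SE 0.23, edgeR adjusted p = 0.0464) and between the controls (log2 fold change 1.41) and fell in EMPA + PFD against control 9w (-1.01). Notch4 rose between the controls (1.58) and fell against control 9w (-0.91). Jag1 was not called between the controls (log2 fold change 0.21, SE 0.28, edgeR adjusted p = 0.578) and fell in EMPA + PFD against untreated, while its means in EMPA (78.0 CPM) and PFD (61.9) were also below that in untreated (106.6) without a call. In the class, 2 of 6 rose in HFpEF (all genes: 9.83%), 4 rose between the controls (17.3%) and 1 fell in untreated against control 9w (1.19%). In EMPA + PFD 1 fell against untreated (5.52%) and 4 against control 9w (16.6%). In a class this small, 1 or 2 calls can lie near those shares.

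The 4 shear-responsive genes are Klf2, Klf4, Thbd and Procr, the last of which is described above. Klf2, the factor induced by laminar flow, was at 39.8, 86.0 and 77.9 CPM in control 5w, 132, 215 and 182 in HFpEF, 264, 275 and 222 in control 9w, 153, 188 and 155 in untreated, 147 and 139 in EMPA, 131 and 135 in PFD and 107, 108 and 73.8 in EMPA + PFD. Every HFpEF and control 9w library exceeded every control 5w library (log2 fold change 1.38, SE 0.25, edgeR adjusted p = 0.00307; log2 fold change 1.90, SE 0.25, edgeR adjusted p = 0.000208). EMPA + PFD lay below untreated without overlap and just missed the call (log2 fold change -0.78, SE 0.25, edgeR adjusted p = 0.0511), and fell against control 9w (log2 fold change -1.39, SE 0.25, edgeR adjusted p = 0.00146). Klf4, its relative, was at 87.1, 102 and 94.1 CPM in control 5w, 177, 288 and 283 in HFpEF, 295, 326 and 229 in control 9w, 228, 227 and 261 in untreated, 179 and 157 in EMPA, 186 and 189 in PFD and 139, 152 and 101 in EMPA + PFD. It rose in HFpEF (log2 fold change 1.40, SE 0.20, edgeR adjusted p = 0.000742) and between the controls (log2 fold change 1.58, SE 0.20, edgeR adjusted p = 0.000146), and fell in EMPA + PFD against untreated (log2 fold change -0.87, SE 0.19, edgeR adjusted p = 0.0165) and control 9w (log2 fold change -1.12, SE 0.19, edgeR adjusted p = 0.00129). For both genes the difference between the disease effects of week 9 and week 5 was called (-1.99 for Klf2 and -1.65 for Klf4 on the log2 scale). Thrombomodulin (Thbd), a target of KLF2 that turns thrombin to the activation of protein C, was at 321, 250.5 and 391 CPM in untreated and 176, 138 and 132 in EMPA + PFD and fell there (log2 fold change -1.11, SE 0.31, edgeR adjusted p = 0.034). It was not called in HFpEF (log2 fold change 0.79, SE 0.30, edgeR adjusted p = 0.0764) or between the controls (log2 fold change 0.43, SE 0.30, edgeR adjusted p = 0.282).

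None of the 4 adhesion genes had its highest mean in control 9w. Icam1 was at 30.8, 36.8 and 37.2 CPM in control 5w, 62.6, 63.0 and 42.7 in HFpEF, 32.1, 23.7 and 45.4 in control 9w, 46.5, 66.6 and 46.5 in untreated, 37.4 and 35.2 in EMPA, 37.8 and 33.3 in PFD and 28.0, 16.7 and 19.3 in EMPA + PFD. All HFpEF libraries were above all control 5w libraries, which just missed the call (log2 fold change 0.68, SE 0.24, edgeR adjusted p = 0.0543), while the controls of both weeks overlapped (log2 fold change -0.05, SE 0.24, edgeR adjusted p = 0.895). In EMPA + PFD it fell against untreated, as given above, and against control 9w, there with overlap (log2 fold change -0.66, SE 0.24, edgeR adjusted p = 0.0473). Vcam1, which binds leukocytes through the integrin VLA-4, was at 17.7, 25.0 and 21.0 CPM in control 5w, 105, 66.1 and 51.4 in HFpEF, 54.3, 21.9 and 70.4 in control 9w, 44.3, 77.9 and 33.8 in untreated, 34.6 and 45.7 in EMPA, 30.0 and 26.2 in PFD and 35.5, 19.5 and 34.3 in EMPA + PFD. It rose in HFpEF without overlap (log2 fold change 1.80, SE 0.40, edgeR adjusted p = 0.00901), with its highest value in HFpEF 1, and between the controls with overlap (log2 fold change 1.20, SE 0.40, edgeR adjusted p = 0.0309). It was not called in EMPA + PFD against untreated (log2 fold change -0.81, SE 0.40, edgeR adjusted p = 0.17). E-selectin (Sele), which slows rolling leukocytes on activated endothelium, was at 28.0, 19.9 and 21.6 CPM in control 5w, 33.2, 32.1 and 30.5 in HFpEF, 15.3, 23.9 and 17.9 in control 9w, 27.7, 33.6 and 53.8 in untreated, 35.0 and 42.3 in EMPA, 48.9 and 29.6 in PFD and 24.5, 13.4 and 24.8 in EMPA + PFD. No comparison called it, although untreated lay above control 9w without overlap (log2 fold change 1.01, SE 0.28, edgeR adjusted p = 0.0728) and EMPA + PFD below untreated (log2 fold change -0.88, SE 0.28, edgeR adjusted p = 0.0525). P-selectin (Selp), stored with Vwf and also carried by platelets, was at 1.60, 5.51 and 5.73 CPM in control 5w, 15.5, 6.60 and 7.41 in HFpEF, 5.30, 2.34 and 11.0 in control 9w, 4.75, 13.1 and 4.32 in untreated, 2.00 and 11.7 in EMPA, 3.51 and 1.85 in PFD and 2.48, 2.27 and 1.88 in EMPA + PFD. Its values differed more than 2-fold within every group but PFD and EMPA + PFD, and no comparison called it (log2 fold change -1.75, SE 0.72, edgeR adjusted p = 0.109 in EMPA + PFD against untreated). Pf4, the most abundant of 5 found platelet markers, was also highest in HFpEF 1, at 90.9 CPM, where 1 of the 5 had 0 counts.

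Promoter sequences are shown for adhesion genes of unlike pattern and for Egfl7 and Erg. Egfl7 and Erg are among 7 genes that rose in HFpEF and in control 9w and fell in EMPA + PFD against untreated. They are RefSeq sequences of assembly GRCr8 from 250 bases before to 50 bases after the start of the gene, 5′ to 3′, and 27 of the listed genes matched an entry. Searched on both strands were GGNNNTTCC, letters shared by many NF-kB sites, and CAGGAAG, an ETS core with flanks. The letters GGAAG can belong to both. Of 33469 promoters of this length, 18.3% held GGNNNTTCC and 12.5% held CAGGAAG, and of the 27 endothelial promoters 5 held the former and 5 the latter, which is 18.5% for each. Capitals mark GGNNNTTCC in the first 3 sequences and CAGGAAG in the last ones, on either strand. Icam1 has matches starting at -218 and -149 from the start of the gene, Vcam1 at -246 and -93, and Sele has none in this window. Egfl7 has a CAGGAAG match at -121 and Erg at -81. No other of the 7 genes with their pattern had a CAGGAAG match, and Eng, also of the 7, had a sequence without it. The examples shown are thus those that hold it. A match describes letters and shows no binding.
Icam1, chr8:27829595-27829894, plus strand: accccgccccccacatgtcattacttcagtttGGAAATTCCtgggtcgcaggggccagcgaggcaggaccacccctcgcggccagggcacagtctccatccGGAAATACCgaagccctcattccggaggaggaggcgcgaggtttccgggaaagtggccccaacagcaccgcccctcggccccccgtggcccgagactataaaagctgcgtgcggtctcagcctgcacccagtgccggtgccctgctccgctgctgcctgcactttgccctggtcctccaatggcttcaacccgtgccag
Vcam1, chr2:206742734-206743033, minus strand: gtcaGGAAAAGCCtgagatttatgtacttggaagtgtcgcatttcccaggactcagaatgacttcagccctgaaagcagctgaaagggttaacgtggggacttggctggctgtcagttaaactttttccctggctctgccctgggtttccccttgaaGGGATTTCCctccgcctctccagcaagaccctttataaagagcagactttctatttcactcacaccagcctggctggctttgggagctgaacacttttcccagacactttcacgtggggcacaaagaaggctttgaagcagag
Sele, chr13:78936264-78936563, plus strand: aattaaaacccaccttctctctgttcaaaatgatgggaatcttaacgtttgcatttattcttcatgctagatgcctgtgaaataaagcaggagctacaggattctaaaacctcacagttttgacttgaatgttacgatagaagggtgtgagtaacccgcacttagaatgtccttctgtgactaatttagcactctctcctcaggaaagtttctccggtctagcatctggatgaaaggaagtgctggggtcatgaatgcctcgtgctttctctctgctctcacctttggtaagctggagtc
Egfl7, chr3:29805381-29805680, plus strand: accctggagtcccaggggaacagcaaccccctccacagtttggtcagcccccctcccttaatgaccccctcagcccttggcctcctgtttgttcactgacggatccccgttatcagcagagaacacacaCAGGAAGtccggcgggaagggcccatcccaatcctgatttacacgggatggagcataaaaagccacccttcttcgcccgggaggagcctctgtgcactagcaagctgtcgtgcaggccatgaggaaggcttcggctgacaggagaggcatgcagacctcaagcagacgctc
Erg, chr11:48251517-48251816, minus strand: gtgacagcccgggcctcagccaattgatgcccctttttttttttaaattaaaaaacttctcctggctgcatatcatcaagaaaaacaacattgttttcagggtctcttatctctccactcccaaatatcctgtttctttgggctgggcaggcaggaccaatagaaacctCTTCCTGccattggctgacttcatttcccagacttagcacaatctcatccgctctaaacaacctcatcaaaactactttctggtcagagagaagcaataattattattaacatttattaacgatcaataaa

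Endothelial genes outside the 45 were counted in the same way, beside the shares of all genes given above: 9.83% higher and 10.2% lower in HFpEF against control 5w, 17.3% and 17.2% between the controls, 0.589% and 1.19% in untreated against control 9w, 6.6% and 5.52% in EMPA + PFD against untreated and 17.1% and 16.6% against control 9w. In lists this short, 1 or 2 calls can lie near or below those shares, as do the 2 of 14 arterial partners that fell between the controls. Of 24 further endothelial genes tested, among them the receptors Tie1, Tek, Kdr and Flt1, 5 rose in HFpEF against control 5w and none fell (median 0.71), 15 rose between the controls (median 1.05), none was called in untreated against control 9w, 4 fell in EMPA + PFD against untreated (median -0.78) and 11 fell against control 9w (median -0.85). The largest rise in HFpEF was that of Ushbp1 (log2 fold change 1.42, SE 0.40, edgeR adjusted p = 0.0243) and the largest fall in EMPA + PFD against untreated that of Myct1 (log2 fold change -1.44, SE 0.40, edgeR adjusted p = 0.0352). Nos3, the endothelial nitric oxide synthase that L-NAME inhibits, was at 194, 129 and 163 CPM in control 5w, 141, 408 and 311 in HFpEF, 447, 515 and 423 in control 9w, 269.9, 347 and 359 in untreated and 221, 244 and 188 in EMPA + PFD. It rose between the controls (log2 fold change 1.51, SE 0.29, edgeR adjusted p = 0.00186) and fell in EMPA + PFD against control 9w (log2 fold change -1.09, SE 0.29, edgeR adjusted p = 0.0112). Of 10 capillary genes tested, 2 rose in HFpEF, 6 rose between the controls and 4 fell in EMPA + PFD against control 9w, with the largest rise for Kcna5 between the controls (3.18) and the largest fall for Fabp5 in EMPA + PFD against control 9w (-1.61). None was called against untreated. Of 14 arterial partners, 3 rose in HFpEF, 5 rose and 2 fell between the controls, and in EMPA + PFD 2 fell against untreated and 4 against control 9w. Unc5b, a netrin receptor of arterial and tip cells, fell in EMPA + PFD against untreated (log2 fold change -1.08, SE 0.22, edgeR adjusted p = 0.0129) and was the gene of that list that rose in untreated against control 9w (log2 fold change 1.06, SE 0.22, edgeR adjusted p = 0.0305).

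Of 16 tested genes of endothelial activation and NF-kB signaling, 5 rose in HFpEF against control 5w and none fell (median 0.53). The largest rises were those of F3, tissue factor (log2 fold change 2.48, SE 0.26, edgeR adjusted p = 0.000184), Cxcl2, a neutrophil chemokine (log2 fold change 2.31, SE 0.77, edgeR adjusted p = 0.0455), and Nfkbia, the inhibitor of NF-kB that is itself its target (log2 fold change 2.24, SE 0.25, edgeR adjusted p = 0.000202). Between the controls 3 rose, Nfkbia most of all (log2 fold change 3.01), and Ccl2 fell (-1.13), where 17.3% of all genes rose and 17.2% fell, so that 3 of 16 is near the share of all genes. In untreated against control 9w Nfkbia fell (log2 fold change -1.15, SE 0.24, edgeR adjusted p = 0.0291) and no other was called. In EMPA + PFD against untreated 3 fell, Csf1 (log2 fold change -1.22, SE 0.20, edgeR adjusted p = 0.00677), Cx3cl1 (log2 fold change -1.15, SE 0.32, edgeR adjusted p = 0.0338) and Irf1 (log2 fold change -1.01, SE 0.28, edgeR adjusted p = 0.0336), and F3 rose (log2 fold change 1.21, SE 0.25, edgeR adjusted p = 0.0135). Against control 9w 2 rose and 4 fell in EMPA + PFD. Of 11 shear partners, Nos3 among them, 3 rose and 1 fell in HFpEF, 3 rose between the controls, and 1 fell against untreated and 3 against control 9w in EMPA + PFD. Klf6, a relative of Klf2, was among them each time (1.13, 1.01, -0.65 and -0.61 on the log2 scale). Of 8 lymphatic genes tested, 5 rose and 1 fell in HFpEF, with Ccl21 highest (log2 fold change 3.38, SE 0.71, edgeR adjusted p = 0.00722) and Prox1, which cardiomyocytes also express, lowest (log2 fold change -1.29, SE 0.30, edgeR adjusted p = 0.0111). None was called in EMPA + PFD against untreated. Of 3 venous genes tested, Nr2f2 rose in HFpEF (log2 fold change 0.74, SE 0.21, edgeR adjusted p = 0.0235), Bgn, which fibroblasts also express, fell between the controls (log2 fold change -2.75, SE 0.77, edgeR adjusted p = 0.0137), and in EMPA + PFD against control 9w 1 rose and 1 fell. Of 4 endocardial genes tested, Cytl1 rose in HFpEF (log2 fold change 2.94, SE 0.60, edgeR adjusted p = 0.00616), 2 rose between the controls and none was called in EMPA + PFD.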

How the data were processed

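The counts per gene were analysed as deposited by the authors, whose processing notes name Trim Galore, FastQC, HISAT2, HTSeq and DESeq2 with assembly rn6. Versions and the strand setting are not given there. Counts of 19 libraries and 17455 symbols, with totals from 7430539 to 13017754, were filtered with filterByExpr (12388 genes kept), normalized with TMM and tested with quasi-likelihood F tests in edgeR 4.0.16 (limma 3.58.1, R 4.3.3) in a model of all 7 groups. Disease by week and EMPA by PFD were tested as differences of differences. P-values were adjusted by Benjamini-Hochberg over all genes tested. A gene was called at an adjusted p under 0.05, and a second rule asked for a fold of at least 2. Genes given by name are the key genes of each class and the largest changes among the genes called in each comparison. Alternatives were DESeq2 1.42.0, limma voom with sample quality weights (which changes the method and weights the libraries at once), other size factors and filters, only the groups compared, a replicate block, a term for Eif2s3y, and each library left out. Fits without sets of libraries were added after the data were seen. The members and lists were chosen with earlier results of these data known. The scripts were tried on simulated counts with known changes.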

Additional observations from a re-analysis of the deposited data

Results flagged for a closer look

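The effect of disease differed between the 2 time points for 27 of the 45 endothelial genes, by edgeR's test of the difference between untreated against control 9w and HFpEF against control 5w with Benjamini-Hochberg adjustment over all 12388 genes, where 10.2% of all genes were called below 0 and 9.76% above. In the same test 5 of 6 erythroid and 4 of 6 lymphatic markers were called below 0. Called above 0 were 4 of 13 cardiomyocyte and 4 of 12 smooth muscle and pericyte markers. Their part was not tested. Values are differences of log2 fold changes, week 9 minus week 5. Among the genes of junctions, surface and matrix they were -1.26 for Pecam1, -1.42 for Emcn, -1.31 for Egfl7, -1.66 for Esam, -1.82 for Robo4, -2.19 for Cldn5, -1.05 for Eng, -1.12 for Ptprb, -0.87 for Mmrn2 and -1.32 for Icam2. Among the transcription factors they were -1.0 for Erg, -1.29 for Fli1 and -2.03 for Gata2. For transport, caveolae and signaling they were -2.31 for Aqp1, -1.88 for Gpihbp1, -3.60 for Rgcc, -0.93 for Acvrl1, -2.11 for S1pr1, -2.22 for Ramp2 and -1.42 for Rasip1. The arterial genes had -2.89 for Sox17, -1.13 for Notch1 and -1.29 for Notch4, the shear-responsive genes -1.99 for Klf2 and -1.65 for Klf4, and the adhesion genes -1.71 for Vcam1. Of the 27, Calcrl alone was above 0, at 1.15. The largest edgeR adjusted p among the 27 was 0.0485 (Egfl7) and the smallest 8.25e-05 (Sox17). For 26 of them the week 5 effect was above the week 9 effect. The value contains the difference between the controls with its sign reversed, from the same libraries. The difference combines libraries with and without Eif2s3y counts in the disease groups and cannot be told apart from it at week 9. Within the groups of 2 or 3 hearts, single libraries that lie far from the rest were not tested for.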

How the results depend on the processing

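Shares of all genes were given above for the main fit, and the counts under other fits have no such share beside them. The number of endothelial genes called in untreated against control 9w was 3 and depended on many choices. It was 1 with no filter beyond 1 count in all, 8 with DESeq2, 24 with limma voom with sample quality weights, 0 in a fit of these groups alone, 0 with a term for Eif2s3y, 1 with a fold of at least 2 and 5 without control 9w 3 and untreated 2. Without control 9w 1, control 9w 2, untreated 1 or untreated 3 it was 1, and without untreated 2 it was 6.

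In EMPA + PFD against untreated the 14 became 32 with limma voom with sample quality weights, 0 in a fit of these groups alone, 7 with a fold of at least 2 and 3 without control 9w 3 and untreated 2. It was 4 if untreated 2 was left out, 3 for untreated 3, 1 for EMPA + PFD 2 and 3 for EMPA + PFD 3. In HFpEF against control 5w the 24 became 8 in a fit of these groups alone, 15 with a fold of at least 2, 15 without control 5w 2, 15 without HFpEF 2 and 6 without control 5w 2 and 3. Without those control libraries the 33 between the controls became 17 and the 27 in the disease by week test became 9. That test gave 15 in a fit of its groups alone and 15 without untreated 1.

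With each library left out in turn the counts ran over 15 to 30 in HFpEF against control 5w, 28 to 33 between the controls, 1 to 6 in untreated against control 9w, 1 to 16 in EMPA + PFD against untreated, 23 to 31 in EMPA + PFD against control 9w and 15 to 30 for disease by week. For EMPA, PFD and EMPA by PFD they were 0 in every fit. The replicate numbers belong to separate hearts and no pairing is implied. With the replicate number as a block, the counts were 20 in HFpEF against control 5w, 32 between the controls, 1 in untreated against control 9w, 9 in EMPA + PFD against untreated, 28 against control 9w and 22 for disease by week. Of 19 pairs of libraries with the same number over 7 comparisons, 4 were the best match for that library, with correlations from -0.53 to 0.29, and libraries of groups in several comparisons entered more than 1 pair. Of 109 results for named genes, 41 were called, 23 of these lost the call under at least 1 alternative, 17 others gained it and 0 changed direction with a call. Fits without named sets of libraries were chosen after seeing the data, and the cause of the differences was not tested.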
